A study of Schmidtea mediterranea with 171 samples.

Results

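The transcripts described here are the 100 whose read levels most closely followed those of *piwi-1* (SmedASXL_008653) from cell to cell among single X1 cells of the planarian *Schmidtea mediterranea*. They were taken from 2224 transcripts, of 67983 counted in all, that had a read in 30 to 89 of the 96 X1 cells and in 10 or more of the 72 X2 cells and that the study does not name by gene. The members were selected on measured values: they are the 100 with the highest Spearman rho between their CPM (counts per 1000000 reads assigned to a transcript) and the CPM of *piwi-1* over the 96 X1 cells. The X1 rho therefore chose the members and is given below as a description only. The question was whether the same transcripts also followed *piwi-1* over the 72 X2 cells, which played no part in the ranking.

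Planarians hold a population of adult stem cells, the neoblasts, which are the source of new cells for every tissue. *piwi-1* encodes a protein of the Piwi branch of the Argonaute family, which binds small RNAs that silence transposons, and its transcript is a widely used marker of neoblasts. Cells leaving the stem cell state lose *piwi-1* RNA as they differentiate, so its level varies both among stem cells and among their early descendants.

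All libraries came from wildtype animals of the clonal asexual strain CIW4 that had been starved for 1 week, and all carry the label of an amputation fragment as treatment. Heads of 30 animals were cut off and dissociated, and cells were sorted by Hoechst staining into the X1 gate (cycling neoblasts, DNA content above that of resting cells) or the X2 gate (a mixture that includes early progeny). SmartSeq2 libraries were made from 96 single X1 cells, 72 single X2 cells, 2 tubes of 200 X1 cells each and 1 tube of 200 X2 cells. The labels do not link cells with animals or sorts, so each gate is 1 sample, cells are not replicates of a gate, and no p-value is given anywhere below.

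The coding starts of *piwi-1* and of 2 further transcripts, *piwi-2* and *Ybp2-1*, are shown. *piwi-1* is the transcript that all members are measured against, and *piwi-2* is its paralog. *Ybp2-1* ranked among the 100 before transcripts named by the study were dropped. The sequences come from the study's list of cloned genes, and the first 399 listed bases of each were used here. They are the first 150 bases of the reading frame, 5′ to 3′, with the start codon in capitals. No genome was used here, so positions are within the transcripts.
piwi-1, SmedASXL_008653, bases 75 to 224: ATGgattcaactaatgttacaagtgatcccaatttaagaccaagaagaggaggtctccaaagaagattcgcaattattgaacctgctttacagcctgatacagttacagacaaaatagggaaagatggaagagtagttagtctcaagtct
piwi-2, SmedASXL_018810, bases 86 to 235: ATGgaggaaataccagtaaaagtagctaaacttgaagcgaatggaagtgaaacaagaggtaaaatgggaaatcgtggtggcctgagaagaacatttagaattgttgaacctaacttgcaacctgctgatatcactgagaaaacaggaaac
Ybp2-1, SmedASXL_006362, bases 87 to 236: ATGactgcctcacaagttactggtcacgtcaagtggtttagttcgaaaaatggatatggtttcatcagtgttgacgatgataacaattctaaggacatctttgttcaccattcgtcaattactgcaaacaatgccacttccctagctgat
The longest exact run shared by the listed stretches of *piwi-1* and *piwi-2* was 10 bases, whereas the reads were 35 bases long after trimming. Within these stretches no aligned read could therefore match both exactly. Sequences of the members were not used here, and since no source used here pairs their IDs with genes, they are given by ID alone.

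X1 libraries of 1 cell had 3.18 M assigned reads at the median (range 0.813 to 20.2 M) and 5040 transcripts with a read. X2 libraries of 1 cell had 2.7 M (range 0.550 to 4.80 M) and 1894 transcripts with a read. The 2 X1 tubes had 18.4 and 10.7 M and the X2 tube 13.6 M assigned reads. Reads assigned to no transcript made up a median of 17.4% of an X1 library and 40.3% of an X2 library, and were left out of every CPM. Most neoblast markers were read in most cells of the X1 gate: *piwi-2* in 96, *vasa-1* in 89, *piwi-1* and *bruli* in 88 each, *piwi-3* in 86, *HP1-1* in 83 and *vasa-2* in 67 of 96 cells. In the X2 gate, *piwi-2* had a read in 72, *piwi-1* in 70 and *piwi-3* in 69 of 72 cells. These counts include cells with very few reads. The lower quartile of *piwi-1* was 2.07 CPM over the X2 cells and 3.63 CPM over the X1 cells. The order of the lowest cells by *piwi-1*, which enters each rho, thus rests on few reads. The other neoblast markers were read in fewer X2 cells, *vasa-1* in 45, *bruli* in 42, *vasa-2* in 39 and *HP1-1* in 37. There *alpha-tubulin* was read in 66 cells, and the epidermal progenitor markers *zfp-1* and *soxP-3* in 17 and 6. The neural markers *chat*, *pc2* and *synapsin* were read in 58, 32 and 9 X2 cells and in 60, 65 and 31 X1 cells.

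*piwi-1* had a median of 224 CPM over the X1 cells (lowest 0, highest 3542) and of 14.3 CPM over the X2 cells (lowest 0, highest 7279). Its mean was no lower in X2 cells, at 510 ± 1263 CPM (SD, n = 72 cells) against 408 ± 588 CPM (SD, n = 96 cells) in X1. Within X1, 33 cells lay below 50 CPM and 63 at or above it, and within X2 46 cells lay below and 26 at or above it. The gates thus overlapped up to the highest X1 cell, which 3 X2 cells exceeded, and a larger share of the X2 cells lay at the low end.

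In X1 cells the 100 members had rho values with *piwi-1* of 0.39 to 0.76 (median 0.44), where all 2224 transcripts had a median of 0.08. SmedASXL_007884 stood first at a rho of 0.76, followed by SmedASXL_013830 at 0.69, SmedASXL_004290 at 0.62 and SmedASXL_017552 at 0.61. The list ends in a dense part of the ranking. SmedASXL_009993 and SmedASXL_018755, at ranks 99 and 100, had a rho of 0.39, and SmedASXL_015350 and SmedASXL_006316, just outside, also had 0.39. A rho of at least 0.2 was reached by 25% of the 2224 transcripts in X1.

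Of the transcripts named by the study, 5 would have ranked among the 100 and were dropped. They were *vasa-1* (rho 0.68 in X1 and 0.21 in X2), which encodes a DEAD-box RNA helicase of germ cells and neoblasts, *HP1-1* (0.58 and −0.13), which encodes a heterochromatin protein, *Ybp2-1* (0.56 and 0.17), the piwi paralog *piwi-3* (0.51 and 0.03), and the helicase gene *vasa-2* (0.43 and 0.19). *piwi-2*, with reads in every X1 cell, lay outside the limits and had a rho of 0.61 in X1 and 0.27 in X2. Over the X2 cells, 2 of these 6 transcripts (*vasa-1* and *piwi-2*) had a rho of at least 0.2.

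Over the 72 X2 cells, which did not choose the members, most members had a rho with *piwi-1* near 0. Choosing the highest X1 values favours lower values in X2, so the X2 values are set beside those of all transcripts instead. How much of the fall from X1 comes from this choice was not tested. The rho of the members ran from −0.22 to 0.36 with a median of 0.07, beside a median of 0.05 for all 2224 transcripts. Of the 100 members, 19 had an X2 rho of at least 0.2, where 10.4% of all 2224 transcripts did (percent called). A rho above 0 was found for 65 members, beside 62.5% of all transcripts. The middle of the distribution of the members thus lay next to that of all transcripts, and the difference was in the upper tail. All of these rho values share the same 72 libraries and the same *piwi-1* counts, and most are too small to be read for a single transcript.

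**Figure D1:**
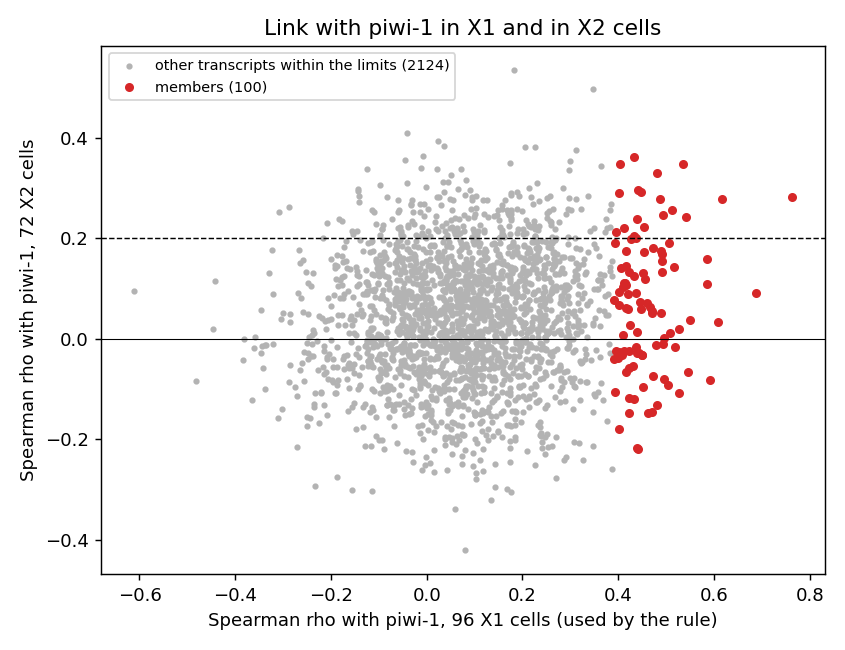
Each point is a transcript within the limits, with its Spearman rho with *piwi-1* over 96 X1 cells (x axis, the measure that chose the members) and over 72 X2 cells (y axis). The 100 members (red) lie at an X1 rho of 0.39 or more by construction and spread on the y axis from −0.22 to 0.36, with 19 on or above the dashed line at 0.2.

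**Figure D2:**
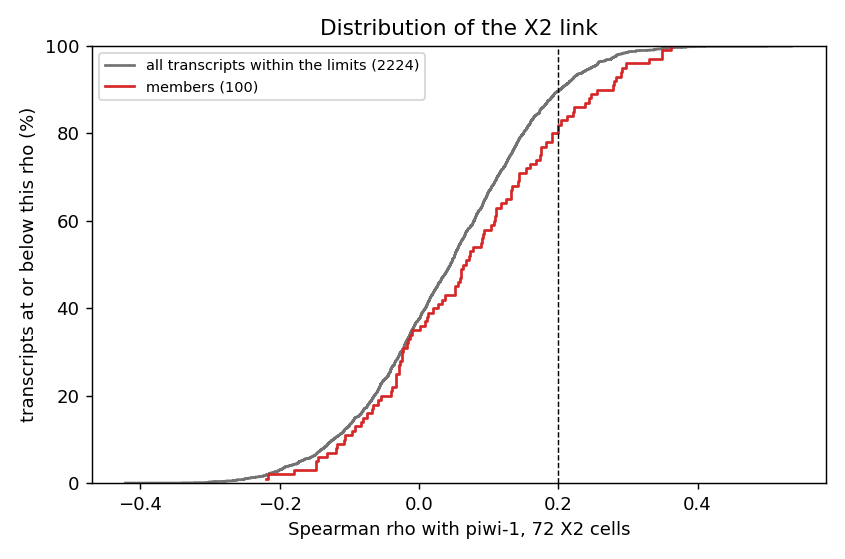
Percent of transcripts (y axis) with an X2 rho at or below each value (x axis), for the 100 members (red) and all 2224 transcripts within the limits (grey); the dashed line marks a rho of 0.2. The curves run close together below 0 and part at the upper end, where 19 members and 10.4% of all transcripts lie at 0.2 or more.

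The rank within the list said little about the X2 value. The 25 members with the highest X1 rho held 6 with an X2 rho of at least 0.2, and the next 3 groups of 25 held 4, 5 and 4. Across the 100 members the X1 rho and the X2 rho were related with a Spearman rho of 0.08, and across all 2224 transcripts with 0.09. These are correlations across transcripts, which are not independent replicates. In the other direction, 11 members were among the 100 transcripts with the highest X2 rho, beside the 4.5% of all transcripts that such a list holds. Those 100 transcripts had a median X1 rho of 0.15, beside 0.08 for all transcripts, and 36 of them, including the 11 members, had an X1 rho of at least 0.2 beside 25% of all transcripts.

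The X2 values differed between ranges of cells, and the excess of members over all transcripts was largest in 1 of them. The cells of each gate carry numbers in the sample titles, and X2 cells 1 to 24, 25 to 48 and 49 to 72 were looked at apart. All X2 cell numbers here are those of the titles, since the columns of the deposited counts number the X2 cells differently. The labels do not say what the numbers stand for. In X2 cells 25 to 48, 49 members had a rho of at least 0.2, beside 32.0% of all transcripts, and the median rho of the members was 0.20. In X2 cells 1 to 24 there were 17 such members beside 17.9% of all transcripts, with a median rho of 0.03. In X2 cells 49 to 72 there were again 17, beside 19.7%, with a median of 0.00. Without cells 25 to 48, 8 members had an X2 rho of at least 0.2, where 9.89% of all transcripts did, the median rho was 0.01 for the members and for all transcripts alike, and 5 members were among the 100 highest. Without cells 49 to 72 the count was 29 beside 17.6%, and without cells 1 to 24 it was 22 beside 19.3%, so that the members' count was then also close to the share of all transcripts. *piwi-1* itself had its highest median and highest value in X2 cells 25 to 48, at 22.9 CPM (highest 7279), against 3.51 CPM (highest 787) in cells 1 to 24 and 10.8 CPM (highest 5028) in cells 49 to 72. Whether that difference between the ranges has a part in the result was not tested.

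In X1 the members followed *piwi-1* in each of the 4 ranges, as their choice requires for most of them. The median rho of the members was 0.43 in cells 1 to 24, 0.41 in cells 25 to 48 and 0.58 in cells 49 to 72, with 93, 91 and 99 members at 0.2 or more beside 26.3%, 23.0% and 45.3% of all transcripts. In X1 cells 73 to 96 it was 0.25, with 55 members at 0.2 or more beside 27.0%. In that range *piwi-1* was high in most cells, with a median of 352 CPM and a lower quartile of 219 CPM. These cells also had the most transcripts with a read of the X1 ranges, at a median of 6505.5. Whether either difference has a part in the lower rho of the members was not tested.

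**Figure D3:**
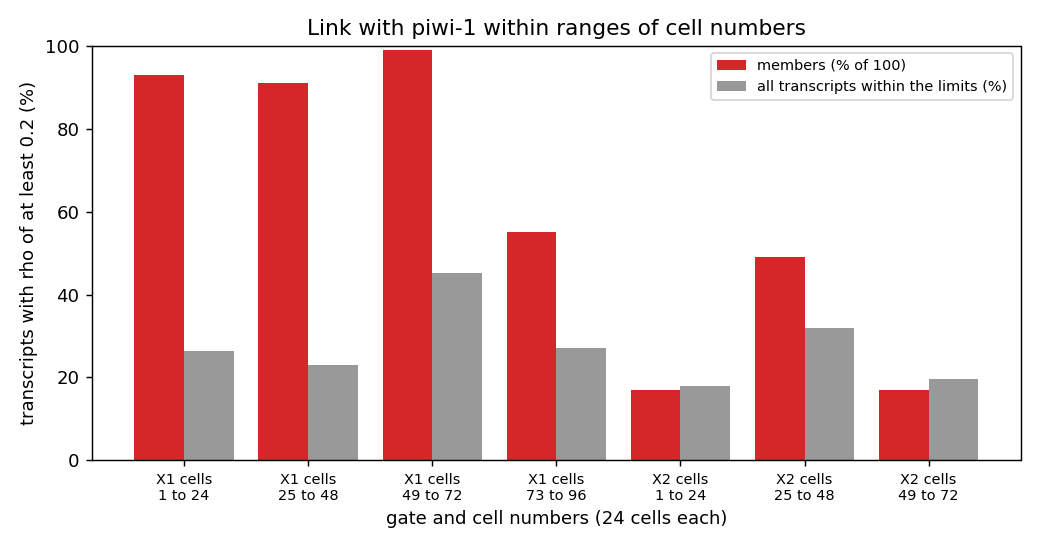
Percent of the 100 members (red) and of all 2224 transcripts within the limits (grey) with a rho of at least 0.2 with *piwi-1* (y axis) within each range of 24 cell numbers (x axis). Members exceed all transcripts in each of the 4 X1 ranges and in X2 cells 25 to 48 (49 members beside 32.0%), and lie just below them in the other 2 X2 ranges (17 members beside 17.9% and 19.7%).

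Added up, the 100 members made a level that tracked *piwi-1* closely in X1 cells. The summed level of the members was 3810 CPM in the median X1 cell (lowest 200, highest 24315) and 4863 CPM in the median X2 cell (lowest 100.9, highest 23362), so the sums of the 2 gates overlapped almost fully. Its rho with *piwi-1* was 0.87 over the 96 X1 cells, a value fixed in large part by the choice of members, and 0.30 over the 72 X2 cells. Within the X2 ranges the rho was −0.09 in cells 1 to 24, 0.58 in cells 25 to 48 and 0.30 in cells 49 to 72, and it was 0.08 without cells 25 to 48. A sum in CPM weighs abundant and long transcripts most.

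Because *piwi-1* levels ran from near 0 to high values, the relation was also computed on each side of 50 CPM, a value chosen after the levels were seen. The value cuts a range of levels and does not mark tested groups. X2 cells lay on either side of it, as at 36.5 and 55.2 CPM. Over the 63 X1 cells at or above 50 CPM the rho of the summed level was 0.79, and 46 members had a rho of at least 0.2 beside 6.47% of all transcripts. Over the 33 X1 cells below 50 CPM the rho of the summed level was 0.03, while 43 members had a rho of at least 0.2 beside 15.3%. Over the 26 X2 cells at or above 50 CPM the rho of the summed level was 0.47, with 24 members at 0.2 or more beside 11.9%. Over the 46 X2 cells below 50 CPM it was 0.01, with 9 members beside 10.5%. The X1 values are of the cells and the measure that chose the members and are given as a description. In X2 the rho of the summed level was higher among the cells with more *piwi-1* and near 0 among the others.

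**Figure D4:**
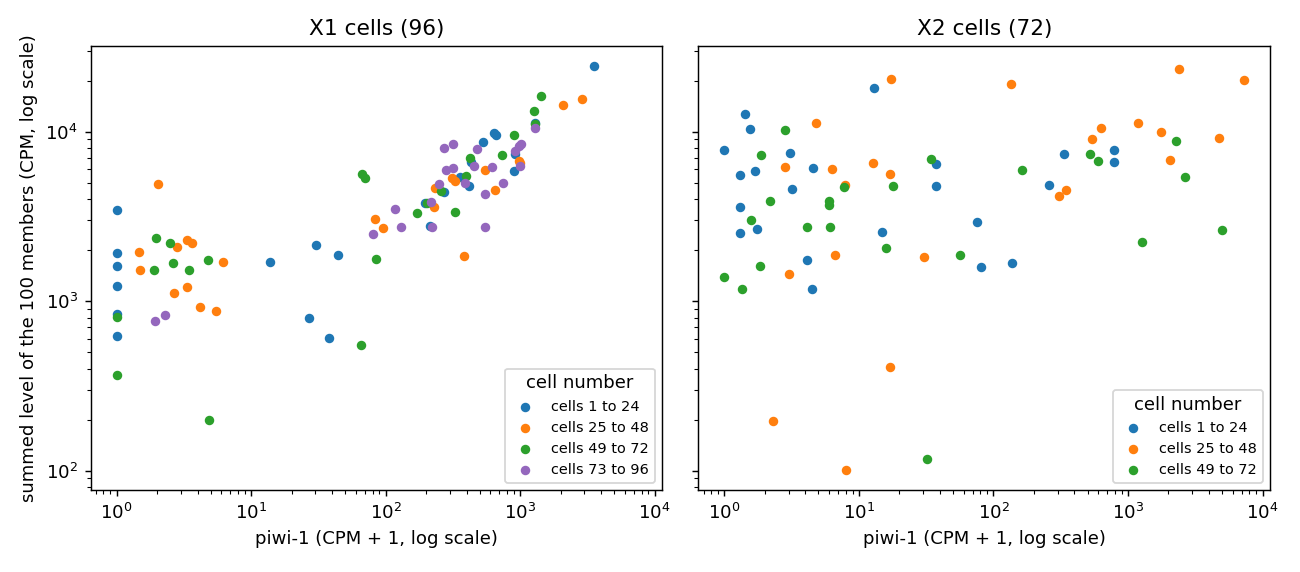
Summed level of the 100 members in CPM (y axis, log scale) against *piwi-1* in CPM plus a pseudocount of 1 (x axis, log scale), with 1 point per cell, for 96 X1 cells (left) and 72 X2 cells (right), coloured by range of cell numbers. The X1 cells rise together at the right (rho 0.87 over all cells), whereas X2 cells with little *piwi-1* spread over most of the range of summed levels (rho 0.30 over all cells).

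SmedASXL_007884, the member with the highest X1 rho, had a read in 86 of 96 X1 cells, with a median of 117 CPM (lowest 0, highest 5387), and in 55 of 72 X2 cells, with a median of 0.81 CPM (lowest 0, highest 1817). The gates overlapped, with most X2 cells in the low part of the X1 range. Its rho with *piwi-1* was 0.28 over all X2 cells, and 0.22, 0.48 and 0.13 in X2 cells 1 to 24, 25 to 48 and 49 to 72. Of the other members that led the X1 list, SmedASXL_004290 had an X2 rho of 0.28, and of −0.25, 0.33 and 0.53 in the 3 ranges. SmedASXL_013830 and SmedASXL_017552 had X2 rho values of 0.09 and 0.03, and reads in 16 and 15 of 72 X2 cells. The 4 leading members thus had X2 values on both sides of 0.2.

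The highest X2 rho among the members belonged to SmedASXL_006617 (0.36, with 0.21, 0.49 and 0.40 in the 3 ranges), which had a read in 85 X1 and 50 X2 cells. SmedASXL_006617 had a median of 21.9 CPM in X1 (lowest 0, highest 874) and of 0.73 CPM in X2 (lowest 0, highest 1909). It reached 0.2 in each X2 range, a mark reached by 17.9%, 32.0% and 19.7% of all transcripts in the 3 ranges. It was picked for its X2 value, and the ranges are parts of the same 72 cells, so this is a description only. SmedASXL_016026 came next at 0.35, with reads in only 34 X1 and 13 X2 cells, and fell to 0.14 when each cell was thinned to 100000 reads. The lowest values were −0.22 each, for SmedASXL_009507 and SmedASXL_011819, with reads in 11 and 13 X2 cells. Thinned, these 2 members stood at −0.09 and −0.05, while SmedASXL_006617 stood at 0.40 and the median of all 100 members at 0.10 beside 0.04 for all transcripts.

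Members read in many X2 cells held most of the values of 0.2 and above, but the share did not rise steadily with the number of cells. Of the 35 members read in 40 or more X2 cells, 10 reached 0.2 beside 11.4% of the 202 transcripts of that class, and of the 33 read in 20 to 39 cells 3 did beside 11.2%. Of the 32 read in 10 to 19 cells, 6 did beside 9.77%. The members were also read in more cells than other transcripts, in a median of 69.5 X1 and 28 X2 cells against 48 and 17 for all 2224.

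Pairs of members in X2 cells were little closer than pairs of all transcripts. Over the 4950 pairs of members the median rho was 0.30 in X1 cells, where members were chosen for sharing *piwi-1*, and 0.06 in X2 cells. All pairs of the 2224 transcripts had medians of 0.06 and 0.04. A rho of at least 0.2 was found for 84.7% of member pairs in X1 (11.0% of all pairs) and for 15.2% in X2 (12.0% of all pairs). A few pairs had a high rho in both gates. SmedASXL_014883 and SmedASXL_004477 had a rho of 0.91 in X1 and 0.83 in X2, SmedASXL_004551 and SmedASXL_046817 of 0.74 and 0.76, SmedASXL_017396 and SmedASXL_017397 of 0.96 and 0.59, and SmedASXL_004290 and SmedASXL_015105 of 0.63 and 0.66. Other pairs high in X1 had a lower rho in X2. SmedASXL_013830 and SmedASXL_017552 had 0.64 in X1 and −0.11 in X2, and SmedASXL_006325 and SmedASXL_061233 had 0.78 and 0.41. All these pairs were picked for their values. The sources used here do not say whether 2 entries of the assembly belong to 1 gene. In that case such a pair would count 1 gene more than once.

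Markers of other states were set against the members in the X2 cells to see whether *piwi-1* differed from them. The list of neoblast markers gave values on both sides of those of all transcripts. With *piwi-2*, 26 members had an X2 rho of at least 0.2, beside 11% of all transcripts, with *vasa-1* 19 beside 11%, with *vasa-2* 17 beside 9.35%, with *HP1-1* 16 beside 8.99%, with *piwi-3* 6 beside 10.5% and with *bruli*, which encodes an RNA-binding protein needed by neoblasts, 6 beside 8.5%. *Ybp2-1* gave 20 beside 8.32%. The count for *piwi-1* (19) lay within the span of these markers.

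Of the neural markers, *pc2*, which encodes a prohormone convertase, gave 10 members beside 8.14%, *synapsin*, a gene of synaptic vesicles, 2 beside 10.3%, and *chat*, the enzyme gene of acetylcholine synthesis, 4 beside 3.55%. Of the epidermal markers, *zfp-1* gave 17 beside 12.8% and *soxP-3* 15 beside 12.1%, the latter with reads in only 6 X2 cells. The protonephridial marker *pou2/3* gave 10 beside 14.6% and *alpha-tubulin* 9 beside 9.4%. In X1 cells *pc2*, *synapsin* and *chat* had a rho with *piwi-1* of −0.23, −0.20 and −0.19. None of the 100 members, which were chosen for following *piwi-1* there, had an X1 rho of at least 0.2 with them, beside 6.25%, 6.29% and 7.42% of all transcripts, and nothing is read from that count. The part of other cell types in the X2 gate in these values was not tested.

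The number of transcripts read in a cell moved with the levels as well. Its rho with *piwi-1* was 0.17 over X1 and 0.14 over X2 cells, and its median rho with the members 0.26 and 0.18, beside 0.22 and 0.20 for all 2224 transcripts. With that number held constant (partial Spearman rho), 15 members had an X2 rho of at least 0.2 beside 7.78% of all transcripts.

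Between the gates, the members, like all transcripts, differed more in how many cells held a read than in their mean level. Of the 100 members, 96 had a read in a larger share of X1 than of X2 cells, beside 94.7% of all 2224 transcripts, a direction that the unequal limits on cells and the lower number of transcripts per X2 cell favour. Thinned to 100000 reads, the median member had a read in 43 of 96 X1 and 10 of 72 X2 cells. The median CPM was 0 in X1 for 13 members (48.2% of all transcripts) and in X2 for 57 (87.5%), and was higher in X1 for 86 (49.5%). The mean CPM, in contrast, was higher in X1 for 50 of 100 members, beside 43% of all transcripts, with 13 members at least 2-fold higher in X1 (15.2%) and 13 at least 2-fold higher in X2 (23.1%). The counts on the median CPM are not independent of the choice of members by their X1 values. Members were read in a median of 69.5 X1 cells against 48 for all transcripts, so nothing is read from those counts.

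Levels varied widely from cell to cell, as they did for all transcripts. The SD over cells was a median of 4.17 times the mean in X2 (1.318 to 8.18) and 1.928 times in X1 (1.123 to 6.73), beside medians of 4.52 and 2.464 for all 2224 transcripts. The members with the largest X1 to X2 ratio of means were SmedASXL_019109 and SmedASXL_017402, at log2 ratios of 3.46 and 3.37. SmedASXL_019109 had a mean of 55.5 ± 116 CPM (SD, n = 96 cells) in X1 and 5.03 ± 34.4 CPM (SD, n = 72 cells) in X2, and its log2 ratio was 5.51 without the highest cell of each gate. SmedASXL_018732 and SmedASXL_009758 had the smallest ratios, at −2.12 and −1.80. For SmedASXL_018732 a single X2 cell held 19984 CPM, and without the highest cell of each gate the log2 ratio was −0.28. For SmedASXL_009758 it was −1.63 without them. Leaving out the highest cell of each gate for every transcript put 64 members higher in X1, beside 67.9% of all transcripts.

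The direction between the gates depended on the scaling. Over all 2224 transcripts the median log2 ratio of X1 to X2 means was −0.20 in CPM, 1.575 with size factors and 0.16 with TMM factors, and 50, 97 and 66 members were higher in X1 under the 3 scalings, beside 43%, 91.8% and 56.1%. Relative to the median of all transcripts, the members lay 0.19, 0.20 and 0.31 higher on the log2 scale, and 59, 58 and 57 of the 100 lay above it. The size factors rest on 29 transcripts with a read in every cell and had a mean of 0.93 in X1 and 2.06 in X2.

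In the tubes, as in the mean CPM of the single cells, neither gate was higher throughout. Summed over the 100 members, the 2 X1 tubes held 5683 and 5888 CPM and the X2 tube 6024 CPM. The mean of the X1 tubes was higher than the X2 tube for 48 members, beside 53.1% of all transcripts, and both X1 tubes were higher for 34 (33.2%) and lower for 30 (31.8%). With 1 X2 tube no spread can be given for that gate, and in a tube of many cells fewer cells of a type and less RNA per cell cannot be told apart. *piwi-1* itself was at 475 CPM in the X2 tube, between the X1 tubes at 427 and 548 CPM. For SmedASXL_007884 the X1 tubes gave 260 (252 to 267) and 392 (381 to 404) CPM, with the X2 tube between them at 297 (288 to 306) CPM. SmedASXL_013830 was higher in both X1 tubes, at 89.3 (85.0 to 93.7) and 56.2 (51.8 to 60.9) CPM against 18.2 (16.0 to 20.6) CPM. So was SmedASXL_017552, at 36.9 (34.2 to 39.8) and 43.9 (40.0 to 48.0) CPM against 21.5 (19.2 to 24.2) CPM. SmedASXL_004290 was lower in both, at 77.1 (73.1 to 81.2) and 70.4 (65.5 to 75.6) CPM against 96.5 (91.3 to 101.9) CPM, so the 4 leading members did not share a direction. SmedASXL_019109, so much higher in the X1 single cells, stood at 68.0 (64.3 to 71.8) and 81.8 (76.4 to 87.4) CPM in the X1 tubes and higher, at 123 (117 to 129) CPM, in the X2 tube. The bounds are exact Poisson intervals at 95% and cover counting error only, since reads without molecular identifiers are not independent molecules.

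**Figure D5:**
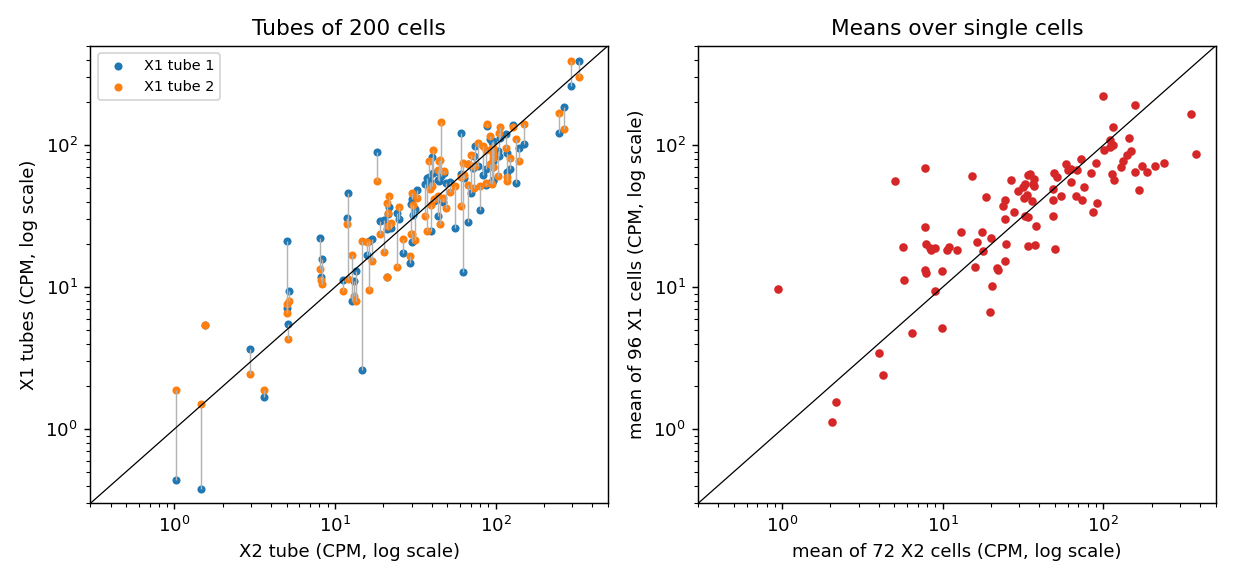
Left, CPM of each of the 100 members in the 2 X1 tubes (y axis, blue and orange, joined by a grey line) against the X2 tube (x axis). Right, mean CPM over 96 X1 cells (y axis) against the mean over 72 X2 cells (x axis), with all axes on a log scale and the line of equal levels in black. Members lie on both sides of the line in both panels, with 48 above it in the tube means and 50 in the means over single cells.

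SmedASXL_004281 had the second highest mean among the members in X1, at 193 ± 250 CPM (SD, n = 96 cells), after SmedASXL_007884 at 222 ± 569 CPM (SD, n = 96 cells), in read units that are not set per transcript length. SmedASXL_004281 had a read in 86 X1 and 47 X2 cells and a mean of 158 ± 476 CPM (SD, n = 72 cells) in X2. Its X1 rho was 0.55 and its X2 rho −0.07, with −0.13, 0.32 and −0.07 in the 3 X2 ranges. High levels in X1 thus went with X2 rho values both above and below 0.2.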

How the data were processed

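The deposited values used here are unnormalized counts of 50-base single-end SmartSeq2 reads per SmedASXL transcript, made after trimming 15 bases from each read and aligning to that transcriptome. The submitters' processing notes name bcl2fastq 1.8.3, Bowtie2 2.2.4 and DESeq2 (no version). The second table, normalized and Winsorized by the authors, was not used. CPM (per 1000000 reads) was computed here over all transcripts, without the entry of unassigned reads. The totals of assigned reads in X1 cells 1 to 24 were all even numbers, unlike in the other ranges, and the sources do not say why. Those cells also had the fewest transcripts with a read of the X1 ranges, at a median of 3518.5. A list chosen without them is given below. Spearman rho, partial rho and thinning (100000 reads, seed 1, no cell left out) used Python 3.11.15, numpy 2.4.6, pandas 2.3.3 and scipy 1.17.1, figures matplotlib 3.10.9, and TMM factors R 4.3.3 and edgeR 4.0.16. The code for the ranking was run on simulated data in which both gates shared the same links and mean levels. A first bound on the share of linked transcripts recovered was missed there and was replaced by a looser one. That run checks the code and says nothing about the X2 result.

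The 48 transcripts the study names by gene were found from its supplements, by ID or by listed values (r of at least 0.99 over 49 cells). No pair was found for 6 listed names, and other gene names of the text carry no ID, so such genes could not be dropped. Members, lists and the mark of 0.2 were chosen with earlier results of these data known. Text names *piwi-1*, markers, dropped transcripts, the 4 members highest in X1 rho, 2 each highest and lowest in X2 rho, 2 highest in mean X1 CPM, 2 each at the ends of the ratio of means, and ranks 99 to 102. Pairs were named after their values were seen. No test was made between cells. Alternatives were tried for thinning, scaling, the measure of likeness, the mark on rho, the size and choice of the list, and cells or tubes left out.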

Additional observations from a re-analysis of the deposited data

How the results depend on the processing

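The X2 values rest on 1 gate of 72 cells, of which the median member had a read in 28. Of 110 summary values under alternatives, 12 moved beyond the main value's margin. Without X2 cells 25 to 48, 8 members had an X2 rho of at least 0.2, beside 9.89% of all transcripts. The median rho of the members was then 0.012, beside 0.008 for all transcripts. Among the 100 highest were 5 members, beside 4.5% of all transcripts, and the rho of the summed level was 0.082. Without X2 cells 49 to 72, 29 members reached 0.2, beside 17.6% of all transcripts, and the median rho was 0.13, beside 0.055. Without X2 cells 1 to 24 the rho of the summed level was 0.46. A mark of 0.1 gave 42 members (33.4% of all transcripts) and a mark of 0.3 gave 4 (31 of all 2224 transcripts). The median rho of member pairs in X2 was 0.034 after thinning. Members higher in X1 numbered 97 with size factors, beside 91.8% of all transcripts, and 96 by the share of cells with a read, beside 94.7%. Leaving out 1 X1 tube gave 48 to 56 members higher in X1 tubes, beside 46.3% and 55.0% of all transcripts. The causes were not tested.

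Lists chosen again shared 77 members with the main list without X1 cells 1 to 24, 79 on thinned cells, 87 with no upper limit on X1 cells and 87 with size factors. Lists chosen with TMM factors (86 shared) or by partial rho (97 shared), classes by X2 cells with a read, the split at 50 CPM and means without the highest cell were added after seeing the data. Of 150 rho values of named members, 128 stayed within 0.1. No paired analysis was possible because the values come from no test and cell numbers only name cells.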
